A study of Mus musculus with 15 samples.

Results

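The 10 genes described here are the alpha-tubulin genes Tuba1a, Tuba1b and Tuba1c and the beta-tubulin genes Tubb2a, Tubb2b, Tubb3, Tubb4a, Tubb4b, Tubb5 and Tubb6. They were chosen by name, as the tubulin isotypes (separate genes for nearly the same protein) of interest in brain, with earlier results of these data known. The count tables hold 27803 genes, and each of the 10 is listed in all 15 tables. The counts came from Drop-seq, a droplet method in which each captured mRNA molecule is counted once through its unique molecular identifier (UMI). Mice were measured in 3 groups. The first comprised 5 WT cerebella of C57BL/6 pups, untreated, at day 7 after birth (P7). The second comprised 5 vehicle-treated and the third 5 vismodegib-treated medulloblastomas of M-Smo mice (Math1-Cre:SmoM2/EYFPloxP/loxP, labelled C57BL/6), taken at day 15 after 3 daily doses, of 75 mg per kg for vismodegib, from day 12 to day 14. In M-Smo mice, Cre driven by the Atoh1 (Math1) promoter turns on SmoM2, a constitutively active Smo, in the cerebellar granule neuron progenitors (CGNPs), so that all 10 tumors carry the same driver, and vismodegib is a SMO inhibitor. WT cerebella and tumors differ in age, in genotype, in the capture device (PDMS for WT, glass for tumors), in the injections, which only the tumor mice received (vehicle was NMP with PEG), and in a spike-in of cultured human cells, which was used in the tumor runs alone. Tumor reads were aligned first to human and mouse combined and then again to mouse, and WT reads to mouse alone. The parts of these cannot be told apart. Where nothing else is said, a value is the number of UMIs of a gene per 1000000 UMIs (CPM), over all cells of a class summed within 1 animal, and errors are SDs over 5 animals.

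Microtubules are hollow tubes built from dimers of alpha- and beta-tubulin. In a dividing cell they form the mitotic spindle, and in a neuron they fill the axon and dendrites, carry transport and push the growing process forward. The isotypes differ mainly in their C-terminal tails, on which modifying enzymes and microtubule-associated proteins act. In the developing brain Tuba1a is the main alpha-tubulin of postmitotic neurons, Tubb2b and Tubb3 are abundant in young neurons, and Tubb2a follows as neurons mature. Tubb5 and Tuba1b are made in most dividing cells, Tubb4b is broadly made and abundant in ciliated cells, and Tubb4a is abundant in mature oligodendrocytes and neurons. Granule neurons, the neurons that CGNPs give rise to, pass through division, cell cycle exit and neurite outgrowth within days, so the lineage offers all of these states in the same tissue.

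Libraries held from 2310474 to 17708677 UMIs, and 37946 of 51841 barcodes were kept as cells (7224 WT, 18293 vehicle, 12429 vismodegib). Pairs of libraries shared at most 6 barcodes. Cells were clustered with the 10 tubulin genes and the other microtubule genes held out, and lineage clusters were joined into 5 classes. The mitotic, replicating, newly postmitotic and differentiating classes were named by marker lists. The remaining progenitor class was named only in the tumors, which were clustered apart from WT, and was led by Hes1 and Atoh1, a CGNP transcription factor. It was named non-replicating by the rule, but its 15 replication markers summed to 2661 to 3735 CPM in vehicle-treated tumors and 5112 to 5908 CPM in vismodegib-treated tumors, against 4793 to 5707 CPM in the replicating class of the vehicle-treated tumors. It is therefore called the Atoh1-high class here. Since the classes come from the same cells as the values, p-values between classes measure how evenly a difference recurs over animals, and the background share of called genes includes the genes that formed the classes. Of the 1947 WT replicating cells, 1018 lay in a cluster led by hemoglobin genes, transcripts of red blood cells. In the tumors a like cluster of 1237 cells stayed without a name and outside the lineage. Nothing in the labels says whether the 5 animals of a group came from separate litters or days.

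In GENCODE annotation of GRCm38, the build of the counts, Tuba1a lies at chr15:98949837-98953703 on the minus strand, Tuba1b at chr15:98931425-98934565 on the minus strand and Tuba1c at chr15:99029891-99038110 on the plus strand, and all lie within 1 cluster. Tubb2a, at chr13:34074274-34078007 on the minus strand, and Tubb2b, at chr13:34126748-34130466 on the minus strand, are neighbours as well. Tubb3 is at chr8:123411424-123422015 on the plus strand, Tubb4a at chr17:57080066-57087782 on the minus strand, Tubb4b at chr2:25222160-25224702 on the minus strand and Tubb5 at chr17:35833921-35838306 on the minus strand. A readthrough gene, Gm49450, shares exons with Tuba1a and Tuba1b on their strand, and no source at hand states how reads in those exons were assigned. Coding regions of the isotypes are near identical, and counts near the 3' end part them only by their diverged ends. Values of Tuba1a against Tuba1b and Tuba1c, of Tubb2a against Tubb2b, and of Tubb4b against its pseudogene Tubb4b-ps1 (229 UMIs against 14480) are uncertain to that extent. Because a transcript gives 1 UMI whatever its length, CPM can be set side by side between genes without a length correction, although capture may differ by gene.

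Promoters (250 bases before to 50 after the RefSeq start, GRCm38.p6, written in the direction of the gene) were at hand for 8 of the 10 genes. The 4 printed here belong to a pair with a mitotic peak in the values that follow, Tubb4b and Tuba1c, and to the main neuronal alpha- and beta-tubulin, Tuba1a and Tubb3. Capitals mark the CCAAT box (CCAAT or, on the other strand, ATTGG), the element TTTGAA (or TTCAAA) and TATAAA (or TTTATA).
Tubb4b, chr2:25224653-25224952, minus strand: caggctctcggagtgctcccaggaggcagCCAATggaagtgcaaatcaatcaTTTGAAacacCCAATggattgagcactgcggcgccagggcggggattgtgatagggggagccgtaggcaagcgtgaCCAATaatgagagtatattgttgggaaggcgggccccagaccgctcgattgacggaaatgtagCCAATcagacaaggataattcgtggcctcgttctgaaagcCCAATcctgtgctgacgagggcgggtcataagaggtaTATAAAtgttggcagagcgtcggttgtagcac
Tuba1c, chr15:99029641-99029940, plus strand: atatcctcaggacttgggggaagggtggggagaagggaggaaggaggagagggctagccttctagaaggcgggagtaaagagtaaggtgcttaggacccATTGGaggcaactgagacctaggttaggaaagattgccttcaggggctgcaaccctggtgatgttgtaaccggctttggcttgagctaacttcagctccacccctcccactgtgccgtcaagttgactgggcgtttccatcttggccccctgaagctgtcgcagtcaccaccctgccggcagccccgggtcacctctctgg
Tuba1a, chr15:98953452-98953751, minus strand: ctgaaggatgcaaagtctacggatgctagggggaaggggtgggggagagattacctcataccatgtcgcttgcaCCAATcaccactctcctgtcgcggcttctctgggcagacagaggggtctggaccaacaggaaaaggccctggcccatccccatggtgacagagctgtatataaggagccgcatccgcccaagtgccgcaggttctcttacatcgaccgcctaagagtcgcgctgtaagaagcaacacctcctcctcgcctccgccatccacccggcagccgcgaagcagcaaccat
Tubb3, chr8:123411303-123411602, plus strand: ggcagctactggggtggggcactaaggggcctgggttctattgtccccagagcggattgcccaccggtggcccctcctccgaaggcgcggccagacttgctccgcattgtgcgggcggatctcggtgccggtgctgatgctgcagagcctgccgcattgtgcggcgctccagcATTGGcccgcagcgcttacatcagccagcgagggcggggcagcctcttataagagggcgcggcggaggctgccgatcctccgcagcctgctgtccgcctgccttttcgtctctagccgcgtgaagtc
The CCAAT box is bound by NF-Y, and many promoters of genes that peak at the division of a cell hold more than 1 of them, while TTTGAA is the core of the cell cycle homology region bound by the DREAM and MuvB complexes. The Tubb4b promoter held 5 CCAAT boxes, between 221 and 19 bases before the start. Of 32851 promoters of the same length, 37.4% held at least 1 and 0.271% held 5 or more. It also held 1 TTTGAA, at 198 bases before the start, a match found in 17.9% of all promoters. Tubb5 held 2 CCAAT boxes, Tuba1a, Tuba1c and Tubb3 held 1 each, and Tuba1b, Tubb2a and Tubb4a held none in this window. TATAAA was found in Tubb2a, 29 bases before the start, and in Tubb4b, 18 bases after it, and in 13.6% of all promoters. The GC content was highest for Tuba1b (72.7%) and lowest for Tubb4b (53.7%), against a median of 52.7% over all promoters.

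The first question was how the isotypes change along the lineage, from dividing progenitors to differentiating granule neurons. In tumors and WT cerebella alike, mean levels of Tuba1b, Tuba1c and Tubb4b over the lineage classes were highest in mitotic cells, and those of Tuba1a, Tubb2b, Tubb3, Tubb4a and Tubb2a were highest after the last division. Tubb5 was abundant in every class. The summed level of the 10 genes in vehicle-treated tumors went from 4406 ± 536 CPM in the Atoh1-high class and 7182 ± 737 in replicating cells to 11089 ± 2635 in newly postmitotic cells, and stood at 8488 ± 1898 in differentiating cells. In WT cerebella it was 9226 ± 1139 CPM in replicating, 10477 ± 501 in mitotic, 17464 ± 1945 in newly postmitotic and 15981 ± 1891 in differentiating cells. These sums are given as a description. Hemoglobin, which led the cluster named above, summed to 98.6 to 3082 CPM in WT replicating, 43.6 to 198 CPM in WT mitotic and 130.2 to 3029 CPM in WT newly postmitotic cells, and its part in the WT steps was not tested. Single genes were tested between classes in 1 fit for the 10 tumors and 1 for the 5 WT cerebella, with the animal as a block, by the quasi-likelihood test of edgeR, and p-values were adjusted by Benjamini and Hochberg's method over all genes of the fit.

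**Figure D1:**
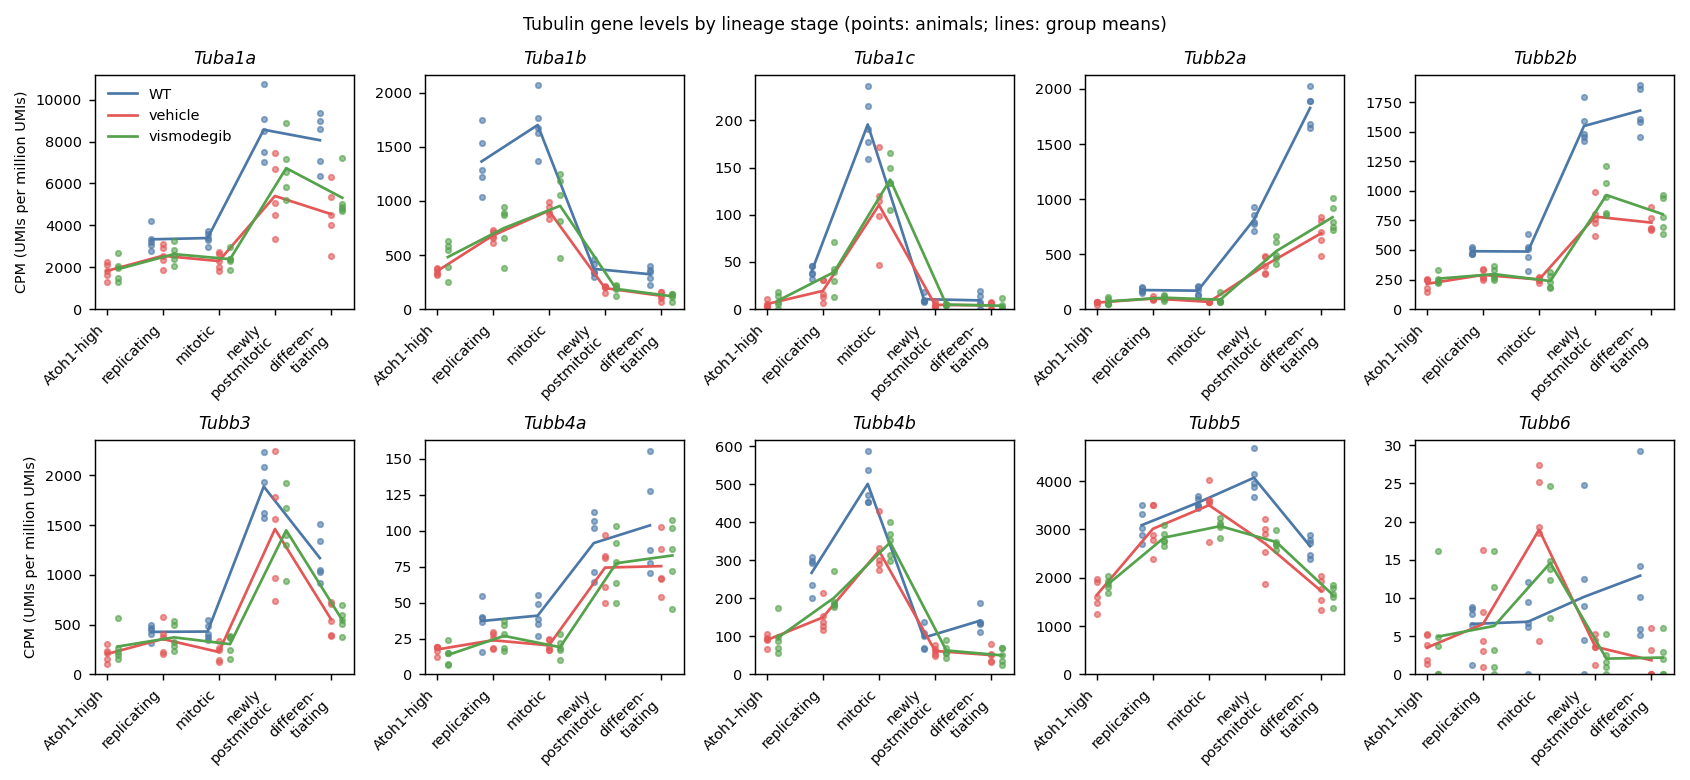
Level of each tubulin gene (y axis, CPM, linear, with its own range in each panel) in the lineage classes (x axis), with 1 point per animal and lines through the group means of WT cerebella, vehicle-treated and vismodegib-treated tumors. Tuba1c and Tubb4b peak in mitotic cells and Tubb3 in newly postmitotic cells in all 3 groups, and no WT cluster took the name of the Atoh1-high class.

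Among the isotypes of dividing cells, Tuba1c was low in abundance and peaked in mitotic cells. In the mitotic class it stood at 46.7, 172, 115, 119.6 and 98.3 CPM in the 5 vehicle-treated tumors and at 237, 215, 191, 177 and 159 CPM in the 5 WT cerebella. In replicating cells of the same animals it stood at 6.13, 31.02, 30.8, 16.1 and 12.8 CPM (vehicle) and 37.6, 45.6, 46.1, 38.1 and 31.5 CPM (WT), and in newly postmitotic cells at 1.19 to 8.94 and 7.84 to 17.9 CPM. Every mitotic value lay above every replicating value of its group. The difference of mitotic from replicating cells was 2.27 ± 0.13 (SE), adjusted p = 3.66e-24 on the log2 scale over the 10 tumors and 2.34 ± 0.15 (SE), adjusted p = 5.38e-23 in WT. Tubb4b followed the same course at a higher level: 290.4, 301, 274, 333 and 429 CPM in mitotic cells of vehicle-treated tumors against 153, 129, 116, 139 and 214 in replicating and 54.7, 68.02, 61.4, 48.4 and 76.9 in newly postmitotic cells. The 3 classes did not overlap. Its mitotic excess was 1.01 ± 0.074 (SE), adjusted p = 1.12e-18 in tumors and 0.94 ± 0.091 (SE), adjusted p = 4.62e-14 in WT. Tuba1b stood at 679.6 ± 47.3 CPM in replicating and 909 ± 61.1 CPM in mitotic cells of vehicle-treated tumors, then at 194 ± 27.7 CPM in newly postmitotic cells, a difference from replicating cells of -1.94 ± 0.061 (SE), adjusted p = 4.84e-39. In WT the difference was -1.90 ± 0.081 (SE), adjusted p = 7.93e-35.

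A UMI of Tuba1c was seen in 20.1% of mitotic cells of vehicle-treated tumors (mean of 5 tumors, median depth 2661 UMIs) and in 0.958% of newly postmitotic cells (median depth 1509 UMIs). With each cell thinned to 500 UMIs the shares were 5.58% and 0.283%. In WT mitotic cells they were 40.5% as deposited and 11.3% thinned (median depth 3447 UMIs). Mitotic cells were thus deeper than newly postmitotic cells, and the order of the classes held at a common depth. Tubb5, a beta-tubulin needed for the division of neural progenitors, was the most abundant beta-tubulin in every lineage class of the vehicle-treated tumors, with 1643 ± 296 CPM in the Atoh1-high class, 3013 ± 483 in replicating, 3502 ± 467 in mitotic, 2707 ± 530.3 in newly postmitotic and 1724 ± 288 in differentiating cells. Its mitotic excess over replicating cells was small, 0.21 ± 0.053 (SE), adjusted p = 0.00274 in tumors and 0.22 ± 0.056 (SE), adjusted p = 0.00549 in WT.

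Of the 10 genes, all 10 were called higher in replicating than in Atoh1-high cells of the tumors, where 26.7% of all 11415 genes were called in either direction. The differences ran from 0.41 for Tubb2b to 1.90 for Tuba1c. The calls of Tubb6 and Tubb4a did not hold without any 1 of vehicle replicates 1, 4 or 5 or vismodegib replicates 4 or 5 (adjusted p = 0.0575 to 0.215) for Tubb6 and without any 1 of vehicle replicates 3 or 5 (adjusted p = 0.0639 to 0.0807) for Tubb4a. This step depends on how the classes are drawn. With progenitors divided instead by the replication and mitosis markers of each cell, an alternative added after the data were seen, Tuba1b (1.03), Tubb5 (0.71) and Tubb6 (1.45) remained higher in replicating cells. Tubb4a kept its direction but not its call (0.32, adjusted p = 0.169). Tuba1c turned to -1.04 (adjusted p = 0.00154), Tuba1a to -0.088, Tubb2a to -0.20, Tubb2b to -0.15, Tubb3 to -0.14 and Tubb4b to -0.0017.

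From replicating to mitotic cells, 5 genes were called higher in the tumors (Tuba1b, Tuba1c, Tubb4b, Tubb5 and Tubb6) and 3 lower (Tubb2a, Tubb2b and Tubb3), against a background of 15.7% of genes called. In WT, 4 of 9 tested genes were called, all higher (Tuba1b, Tuba1c, Tubb4b and Tubb5), against 4.76%. The call of Tubb2b did not hold without any 1 of vehicle replicate 5 or vismodegib replicates 1 or 4 (adjusted p = 0.0509 to 0.0739), nor that of Tubb5 in WT without any 1 of WT replicates 2 or 5 (adjusted p = 0.0764 to 0.0785). With clusters drawn at a resolution of 1.2, the 3 lower calls in the tumors were lost, Tubb2a at -0.22 (adjusted p = 0.1248), Tubb2b at -0.006 (adjusted p = 0.976) and Tubb3 at -0.15 (adjusted p = 0.217). In WT the same 3 genes were then called lower, at -0.39, -0.29 and -0.41 (adjusted p = 0.0124, 0.00808 and 3.99e-05), and Tubb5 lost its call (adjusted p = 0.105), so that 3 were higher and 3 lower. The calls of the neuronal genes at this step thus depend on how the classes are drawn. With per-cell phases the mitotic excess of Tuba1c became 4.42 in tumors and 3.40 in WT, and that of Tubb4b 1.62 and 1.42. The 3 neuronal genes changed sign under that division, to 0.30 for Tubb2a, 0.39 for Tubb2b and 0.46 for Tubb3 in the tumors, and Tuba1b in WT went to -0.11. Tubb6, which has few UMIs in this lineage, stood at 27.4, 19.2, 4.35, 18.4 and 25.2 CPM in mitotic cells of the vehicle-treated tumors against 16.3, 4.43, 0.962, 3.02 and 8.15 CPM in replicating cells, and the groups overlap.

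The isotypes of neurons rose together once cells had left the cycle. Tubb3, the beta-tubulin used as a marker of young neurons, stood at 972, 1780.5, 741, 1563 and 2251 CPM in newly postmitotic cells of the vehicle-treated tumors and at 225, 404, 206, 373 and 574 CPM in their replicating cells. In WT it stood at 2080.4, 2231, 1932, 1574 and 1626 CPM in newly postmitotic and 447, 472, 495, 408 and 318 CPM in replicating cells. All values of the later class lay above all values of the earlier one, in both groups. The step from replicating to newly postmitotic cells was 1.95 ± 0.072 (SE), adjusted p = 1.47e-35 in tumors and 2.08 ± 0.073 (SE), adjusted p = 3.45e-40 in WT. Tuba1a, the main alpha-tubulin of neurons, went from 2547 ± 492 to 5401 ± 1651 CPM in vehicle-treated tumors and from 3332 ± 545 to 8565 ± 1452 CPM in WT, fitted steps of 1.16 ± 0.055 and 1.31 ± 0.06 (SE), both called. Tubb2a, low in replicating cells at 81.7 to 119 CPM in vehicle-treated tumors and 148 to 202 CPM in WT, had steps of 2.16 ± 0.08 and 2.22 ± 0.086. Tubb2b went from 289 ± 42.04 to 782 ± 137 CPM and from 489 ± 25.5 to 1548 ± 150.3 CPM, and Tubb4a from 23.8 ± 5.52 to 74.4 ± 18.8 CPM and from 37.2 ± 13.9 to 91.5 ± 22.02 CPM.

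Over this step 5 genes were called higher and 5 lower in the tumors, against 65.6% of all genes called, and 6 higher and 3 lower of 9 in WT, against 46.4%. Higher in both were Tuba1a, Tubb2a, Tubb2b, Tubb3 and Tubb4a, and lower in both Tuba1b, Tuba1c and Tubb4b. Tubb5 was called in opposite directions, -0.15 ± 0.053 (SE) in tumors and 0.35 ± 0.055 in WT. The tumor call was lost without any 1 of vehicle replicates 1, 3 or 5 (adjusted p = 0.0586 to 0.114). Tubb6 was lower in tumors (-1.14 ± 0.31) and was not tested in WT. Counted from the Atoh1-high class, 6 genes were higher and 2 (Tuba1b and Tubb4b) lower in newly postmitotic cells, with 60.2% of genes called. Among these differences were those of Tubb2a (2.83 ± 0.10), Tubb3 (2.67 ± 0.083) and Tubb4a (2.14 ± 0.15).

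Within the postmitotic cells, Tubb3 and Tubb2a went opposite ways. Tubb3 stood at 391, 731, 397, 539 and 708 CPM in differentiating cells of vehicle-treated tumors, and each tumor was below its own newly postmitotic value. The difference was -1.44 ± 0.078 (SE), adjusted p = 4.32e-26 in tumors and -0.67 ± 0.072 (SE), adjusted p = 1.01e-12 in WT, where the mean went from 1889 to 1169.8 CPM. Tubb2a instead stood at 483, 701, 625, 803 and 836 CPM in differentiating against 322, 482, 327, 472 and 389 CPM in newly postmitotic cells of vehicle-treated tumors. In WT cerebella it reached 1889.8, 2032, 1685, 1641 and 1889 CPM against 795, 932, 778, 852 and 706 CPM. The classes did not overlap in either group, and the fitted differences were 0.73 ± 0.072 (SE), adjusted p = 6.95e-14 in tumors and 1.15 ± 0.073 (SE), adjusted p = 1.49e-23 in WT. In the tumors 1 gene was higher and 5 lower at this step, with 52.4% of genes called. In WT 2 were higher (Tubb2a and Tubb4b, 0.55 ± 0.15) and 2 lower (Tubb3 and Tubb5, -0.62 ± 0.058), with 22.2% called. Tubb4b in WT lost its call without WT replicate 2 (adjusted p = 0.0587) and Tubb2b in tumors without vismodegib replicate 4 (adjusted p = 0.0734). With clusters drawn at a resolution of 1.2, the lower tumor values of Tuba1a and Tubb2b at this step became 0.034 (adjusted p = 0.595) and 0.20 (adjusted p = 0.00223). Tuba1a thus lost its lower call and that of Tubb2b turned into a higher one, while Tubb4b gained a lower call (-0.27, adjusted p = 0.016), which made 2 genes higher and 4 lower. No direction is drawn for Tuba1a and Tubb2b at this step. A UMI of Tubb3 was seen in 76.8% of newly postmitotic and 44.1% of differentiating cells of vehicle-treated tumors, and in 17.4% of microglia-like cells, which should lack it. The median depths were 1509, 1242 and 2114 UMIs. At 500 UMIs per cell these shares were 48.04%, 20.98% and 7.60%.

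As a share of all UMIs of the 3 alpha-tubulin genes, Tuba1a took 69.01 ± 2.29% in mitotic and 96.3 ± 0.740% in newly postmitotic cells of vehicle-treated tumors, and Tuba1b took 27.7 ± 3.06% and 3.63 ± 0.740%. The WT shares of Tuba1b were 32.1 ± 3.88% and 4.18 ± 0.562%. Postmitotic granule cells of both groups thus held mainly Tuba1a of the 3, whereas mitotic cells held Tuba1b as well, and Tuba1c at 3.24 ± 1.05% (vehicle) and 3.70 ± 0.547% (WT). Of the 7 beta-tubulin genes, Tubb5 took 79.4 ± 1.79% of UMIs in mitotic, 49.7 ± 2.87% in newly postmitotic and 45.1 ± 2.10% in differentiating cells of vehicle-treated tumors. Where the share of Tubb5 was lower, that of other genes was higher, first Tubb3 (25.7 ± 5.42% in newly postmitotic cells) and then Tubb2b and Tubb2a (19.3 ± 2.32% and 18.02 ± 2.40% in differentiating cells). In WT differentiating cells Tubb2a had 24.1 ± 0.767% and Tubb5 35.1 ± 2.59%. Shares are a description and carry no test.

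**Figure D2:**
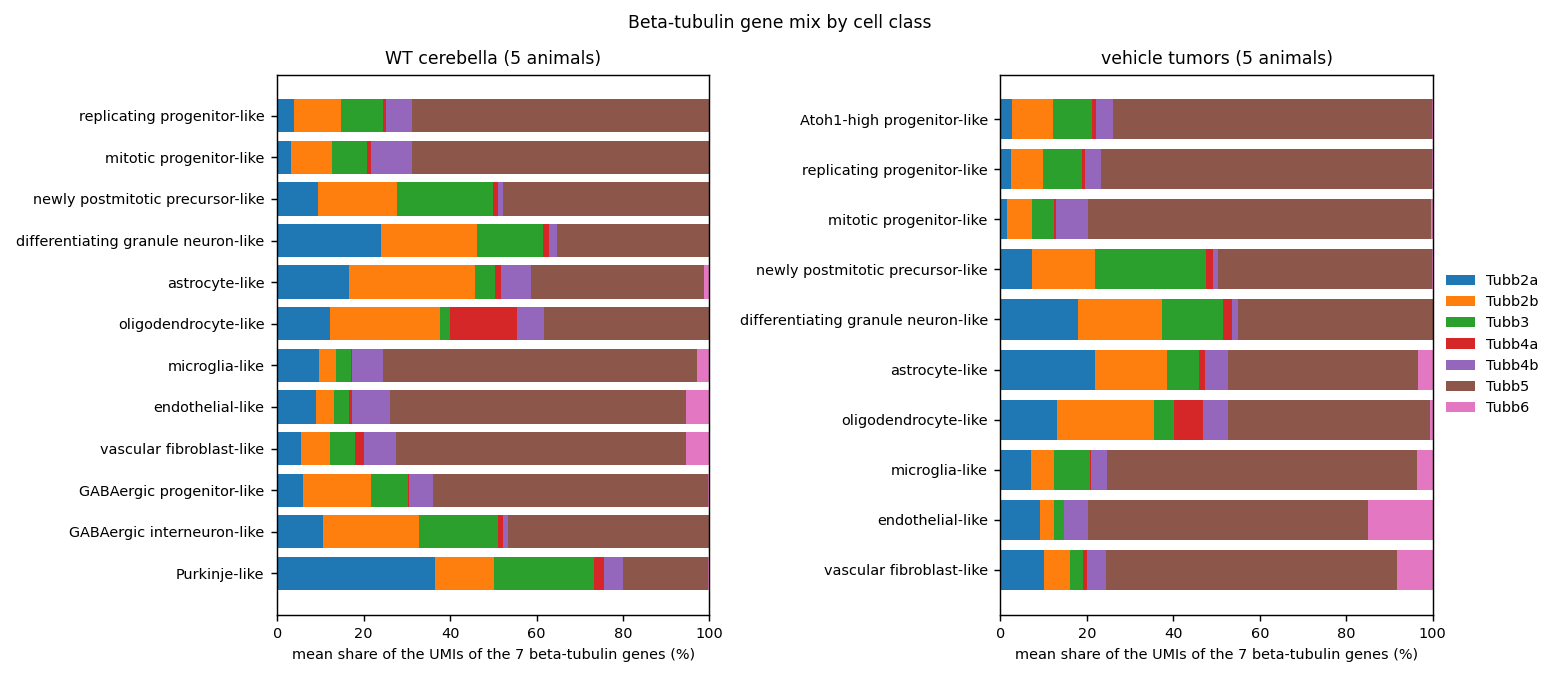
Mean share (x axis, percent of the UMIs of the 7 beta-tubulin genes, 5 animals) of each beta-tubulin gene in each cell class (y axis), for WT cerebella on the left and vehicle-treated tumors on the right. Tubb5 holds the largest share in dividing progenitors, Tubb2a in WT Purkinje-like cells, and Tubb4a has its largest share in oligodendrocyte-like cells.

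Other cells of the tissue had isotype mixes of their own. Oligodendrocyte-like cells were highest in Tubb4a, a beta-tubulin of myelinating cells, with 604 ± 192 CPM in WT cerebella against 104 ± 36.6 CPM in the next class, differentiating granule neuron-like cells, and the ranges of these neighbours do not overlap. They also held Tuba1a at 6398 ± 426 CPM, next below GABAergic interneuron-like cells at 6742 ± 1023 CPM, and the ranges of that pair overlap. Tubb6 was seen in none of the 5 WT sums of oligodendrocyte-like cells, which allows up to 14.4 to 45.3 CPM per animal (3 UMIs, counting error only). Purkinje-like cells, found in WT, held Tubb2a at 1490.4, 1726, 1548, 1260.5 and 1691 CPM. These values overlap with those of differentiating granule neuron-like cells and lie above all other classes, and Tubb2a made up 36.4 ± 3.19% of their beta-tubulin UMIs. Their Tubb5, at 833 ± 174 CPM, was the lowest mean of the 12 WT classes, but overlaps with that of astrocyte-like cells (943 ± 58.8 CPM).

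Microglia-like cells stood out for Tuba1c, with 165, 236, 180.3, 372 and 165 CPM in WT and 20.6, 225, 183, 105 and 81.3 CPM in vehicle-treated tumors, overlapping with mitotic progenitors. Mitotic markers in these sums summed to 469 to 2232 CPM in WT and to 550.0 to 1960.0 CPM in vehicle-treated tumors, against 6308 to 8979.5 CPM in mitotic progenitors, and their part in the Tuba1c level was not tested. Tubb6 was highest in endothelial-like cells (55.7 to 323 CPM in WT and 43.7 to 398 CPM in vehicle-treated tumors) and vascular fibroblast-like cells (93.2 ± 32.4 and 96.2 ± 102 CPM). These classes overlap with each other and with further classes, microglia-like and astrocyte-like cells (to 211 CPM in vehicle-treated tumors) among them, and they held 58 to 153 cells in these groups. In the sum over all lineage classes Tubb6 did not exceed 13.8 CPM in any animal. GABAergic progenitor-like and GABAergic interneuron-like cells, both WT, differed in the same genes: Tuba1b was at 1150.4 ± 260.4 CPM in the first and 245 ± 60.03 in the second, Tubb4b at 268 to 342 and 61.2 to 98.3, and Tubb3 at 468 ± 53.5 and 1165 ± 112. The ranges of the pair do not overlap for these 3 genes. The differences between these cell types were not tested.

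The next comparison asked what 3 doses of vismodegib changed. In all lineage cells summed, Tubb2a and Tubb2b, a pair of neuronal beta-tubulins, were higher in vismodegib-treated than in vehicle-treated tumors. Of the 10 genes these 2 were called, both upward, with 13.1% of all genes (1630 of 12415) called in either direction. Tubb2a stood at 137, 191, 163, 220.0 and 145 CPM in vehicle replicates 1 to 5 and at 336, 272, 299, 446 and 577 CPM in vismodegib replicates 1 to 5. Every treated tumor lay above every control tumor. The log2 difference was 1.18 ± 0.22 (SE), adjusted p = 0.00344, and the call held in all 22 alternatives, with values from 0.97 to 1.46 and adjusted p up to 0.0159. These alternatives include fits with the tumor sets described below, which gave the 1.46 and the 0.0159 and from which no call is taken. Tubb2b stood at 369, 366, 351, 505 and 376 CPM in vehicle and 456, 486, 617, 567 and 762 CPM in vismodegib tumors, and the groups overlap through vehicle replicate 4. Its difference was 0.56 ± 0.17 (SE), adjusted p = 0.0467, near the threshold, and 11 of 22 alternatives lost the call, with adjusted p up to 0.243. Fits with the tumor sets are among the alternatives that kept the call and among those that lost it. It was lost without any 1 of vehicle replicates 1, 2, 3 or 5 or vismodegib replicates 3, 4 or 5 (adjusted p = 0.0786 to 0.152).

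**Figure D3:**
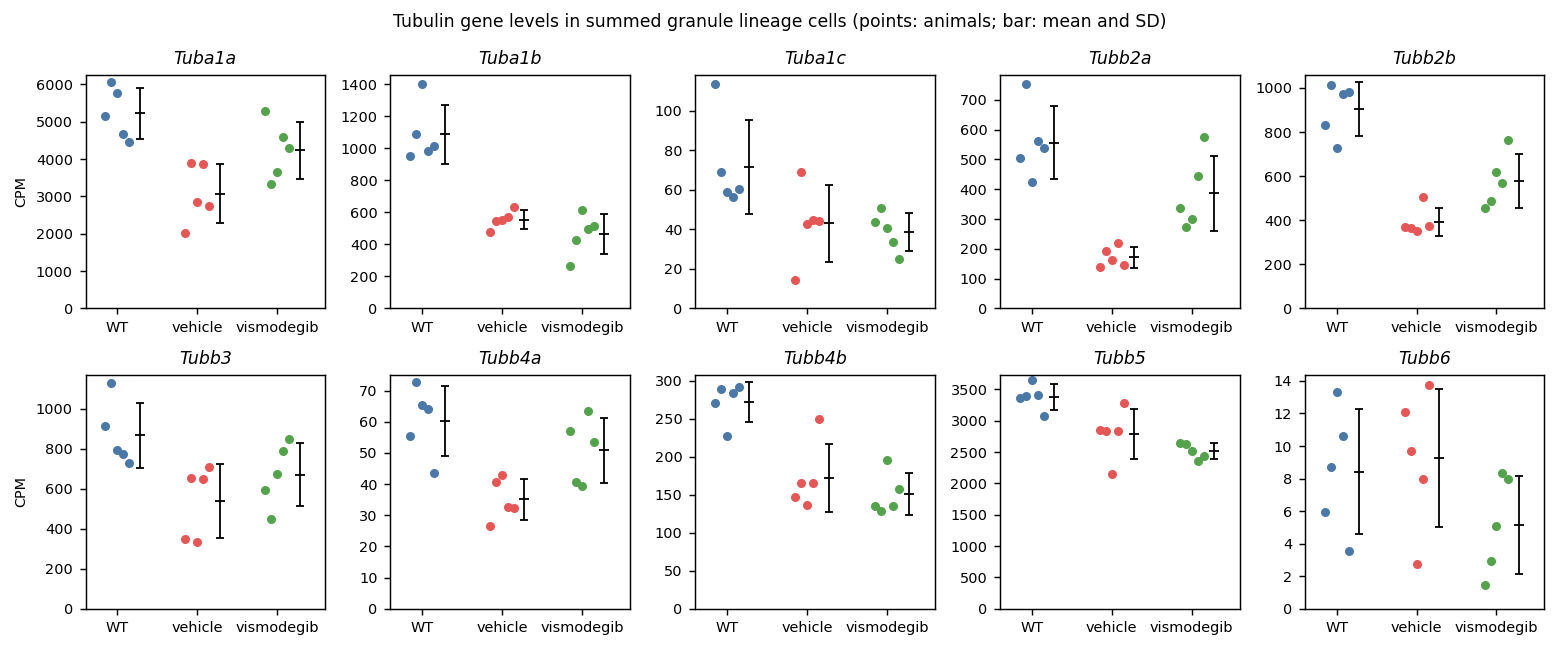
Level of each tubulin gene (y axis, CPM) in the summed lineage cells of each animal (points) in WT cerebella, vehicle-treated and vismodegib-treated tumors, with group mean and SD (black). For Tubb2a the 3 groups stand apart as vehicle below vismodegib, with WT overlapping only the highest vismodegib values, and for Tubb2b vehicle lies below WT in every animal.

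Tuba1a stood at 2031, 3905, 2844, 3863 and 2738 CPM in vehicle and 5279, 3338, 3649.5, 4580.5 and 4303 CPM in vismodegib tumors, with overlap, a difference of 0.46 ± 0.21 (SE), adjusted p = 0.179. Tubb4a differed by 0.55 ± 0.19 (SE), adjusted p = 0.0774 and Tubb3 by 0.32 ± 0.25 (SE), adjusted p = 0.479. The isotypes of dividing cells were not called either, with differences of -0.25 ± 0.19 for Tuba1b, -0.18 ± 0.32 for Tuba1c, -0.20 ± 0.18 for Tubb4b and -0.15 ± 0.13 for Tubb5. The intervals leave room for changes in either direction, -0.63 to 0.13 for Tuba1b and -0.80 to 0.44 for Tuba1c (95%, log2). An earlier look at these data divided the tumors, after the values were seen, into a set of vehicle 1 and 3 with vismodegib 1, 2 and 3 and a set of the rest, and the labels name no batch. Because the sets were drawn from the values of these tumors, p-values that rest on them are too small, and no call is taken from them. Within the first set Tubb2a differed by 1.01 and Tubb2b by 0.54 (adjusted p = 0.0159 and 0.243), and within the second by 1.46 and 0.67 (adjusted p = 0.00153 and 0.0401). With the set as a term in the fit, Tuba1a (0.55), Tubb3 (0.53) and Tubb4a (0.58) also came to an adjusted p under 0.05. Tuba1c went opposite ways in the sets, 0.64 in the first and -0.83 in the second.

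**Figure D4:**
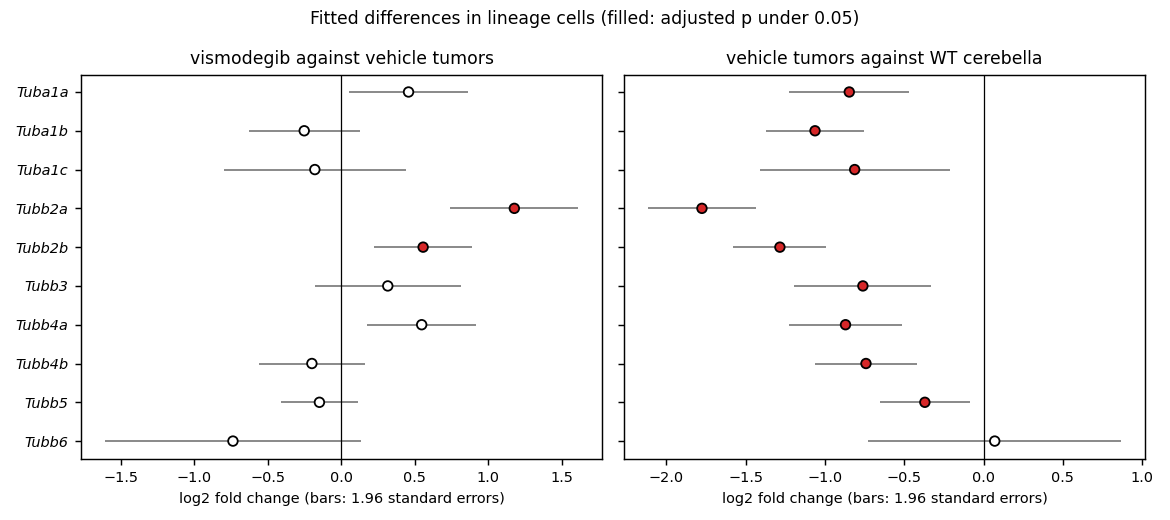
Fitted log2 fold change (x axis, points, with bars for the 95% interval) of each tubulin gene (y axis) in summed lineage cells, for vismodegib-treated against vehicle-treated tumors on the left and vehicle-treated tumors against WT cerebella on the right. Filled points have an adjusted p under 0.05, which holds for Tubb2a and Tubb2b on the left and for all genes but Tubb6 on the right.

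The stage makeup of the lineage differed with treatment. Differentiating cells made up 5.21 ± 2.24% of lineage cells in vehicle and 31.1 ± 15.1% in vismodegib tumors, and Atoh1-high cells 24.8 ± 6.38% and 7.42 ± 3.53%. Lineage levels were therefore also computed with every tumor given the mean stage makeup of the vehicle tumors, in UMIs rather than cells, an alternative added after the data were seen. The UMI weights were 0.199 for Atoh1-high, 0.208 for replicating, 0.323 for mitotic, 0.237 for newly postmitotic and 0.0333 for differentiating cells. The log2 ratio of the group means of Tubb2a then went from 1.17 to 0.34, that of Tubb2b from 0.55 to 0.18, that of Tuba1a from 0.46 to 0.18 and that of Tubb4a from 0.53 to 0.018. The ratios of 3 isotypes changed sign, from -0.26 to 0.13 for Tuba1b, from -0.20 to 0.16 for Tubb4b and, for Tuba1c, from -0.15 to 0.41. With equal makeup, Tubb2a stood at 171 ± 24.9 CPM in vehicle and 216 ± 36.9 CPM in vismodegib tumors. These standardised values are a description with no test, and they take each class to hold like cells in both treatments. The Atoh1-high class was not matched in its replication markers, which were higher in vismodegib tumors without overlap, as given above. The part of that mismatch in the 3 changes of sign was not tested. Marker lists other than those of the lineage classes also differed in the same sums. The 5 genes of the neuron-like list, all detected, summed to 231 to 377 CPM in vehicle and 565 to 1016 CPM in vismodegib tumors, the 4 unipolar brush cell genes to 10.3 to 31.7 and 83.2 to 131 CPM, and the 8 microglia genes to 4.00 to 27.7 and 25.2 to 46.9 CPM, the last with overlap. The paper uses Meg3, of the neuron-like list, as a neuronal marker along the CGNP-like trajectory and counts unipolar brush cells in the Atoh1 lineage. The first 2 lists therefore need not mark cells of another origin. Pdgfra and Cspg4 went the other way without overlap, with 89.5 to 182 CPM in vehicle and 49.2 to 77.5 CPM in vismodegib tumors. Both belong to the oligodendrocyte list of 9 genes, whose median was 365 CPM in vehicle and 511 CPM in vismodegib tumors, with overlap. The medians of Mbp, Mog and Cnp summed were 106 and 235 CPM, and those of the vascular fibroblast list 18.6 and 44.2 CPM, also with overlap. All other lists of other cell types overlapped, only that of GABAergic interneurons with a lower median in vismodegib tumors. The part of these markers in the lineage differences was not tested.

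Within single stages none of the 10 genes was called by edgeR. The background of called genes was 3.61% in Atoh1-high, 1.29% in replicating, 1.84% in mitotic, 3.06% in newly postmitotic and 0.0517% in differentiating cells, so few genes of any kind were. At an unadjusted p under 0.05 there were 1, 2, 0, 1 and 0 of the members tested (7, 9, 10, 8 and 8), and DESeq2 called 0 in each. Tubb2a stood at 322, 482, 327, 472 and 389 CPM in newly postmitotic cells of vehicle and 493, 407, 463, 609 and 667 CPM of vismodegib tumors, which overlap, a difference of 0.42 ± 0.18 (SE), adjusted p = 0.264. In differentiating cells the difference was 0.27 ± 0.17 (SE), adjusted p = 0.928, with a 95% interval of -0.053 to 0.60. Tuba1c in replicating cells had the largest value, 1.005 ± 0.42 (SE), adjusted p = 0.44. With the tumor set as a term, adjusted p, too small for the same reason, were under 0.05 for Tubb2a in newly postmitotic cells (0.50, adjusted p = 0.0152) and Tubb3 in Atoh1-high cells (0.64, adjusted p = 0.0478). With per-cell phases, a division added after the data were seen, Tuba1b (0.78), Tubb2a (0.94) and Tubb4b (0.82) were called higher in progenitors low in both phase markers. That class held 3532 vehicle and 459 vismodegib cells. The share of all genes called in this fit is not given here, so nothing particular to tubulins is read from these calls.

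Whether the treatment difference itself varied between stages was tested by an interaction, the mean difference in the 3 progenitor classes minus that in the 2 postmitotic classes. Tuba1a, Tubb2b and Tubb3 were called, 3 of 10, against 7.85% of all genes. The Tuba1a differences were 0.068, 0.041, 0.049, 0.32 and 0.23 (log2, Atoh1-high to differentiating), larger in the postmitotic classes, and the interaction was -0.33 ± 0.055 (SE), adjusted p = 3.19e-06. Grin2b, a glutamate receptor subunit of postmitotic neurons, also separated the treatments in newly postmitotic cells, at 38.8 to 108 CPM in vehicle and 137 to 156 CPM in vismodegib tumors, so the class was not matched in this marker, and its part was not tested. The Tuba1a interaction was called in 18 of 19 alternatives and lost with per-cell phases (adjusted p = 0.0815). Tubb3 went the other way, with 0.46, 0.068, 0.43, -0.0035 and -0.022 and an interaction of 0.26 ± 0.086 (SE), adjusted p = 0.0484. The 0.46 is that of the Atoh1-high class, which enters every interaction here and was not matched in its replication markers. In that class Tubb3 stood at 566 CPM in vismodegib 5 and at 263 CPM in the nearest other vismodegib tumor. The part of these values in the interactions was not tested. The interaction of Tubb2b was -0.23 ± 0.074 (SE), adjusted p = 0.0335. Those of Tubb3 and Tubb2b were called in 12 and 5 of 19 alternatives. That of Tuba1b, not called itself, was called in 6 of 19 alternatives, with values from 0.16 to 0.35 over all 19. Tubb3 lost the call without any 1 of vehicle replicates 1, 2 or 5 or vismodegib replicates 4 or 5 (adjusted p = 0.0505 to 0.264), and Tubb2b without any 1 of vehicle replicates 1, 4 or 5 or vismodegib replicates 1, 2, 3, 4 or 5 (adjusted p = 0.0528 to 0.204). No single-stage difference of these genes was called on its own.

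Among the other cell types, 1 gene of the 10 differed with treatment. Tubb4a in oligodendrocyte-like cells stood at 145, 164, 132, 192 and 168 CPM in the 5 vehicle tumors and at 676, 794, 702, 371 and 744 CPM in the 5 vismodegib tumors, and at 501, 393, 908, 610.3 and 611 CPM in the 5 WT cerebella. All vismodegib tumors lay above all vehicle tumors, and all WT cerebella did as well. The log2 difference of vismodegib from vehicle was 2.10 ± 0.25 (SE), adjusted p = 6.39e-05, called in all 20 alternatives (from 1.93 to 2.31). The tumor set term, which was drawn from the values of these tumors, is among them, and no call is taken from it. It was 1 of 8 members tested, with 5.15% of all genes called in these cells. No member was called in astrocyte-like (7 tested, background 1.83%), microglia-like (3 tested, 0.194%), endothelial-like (2 tested, 0%) or vascular fibroblast-like cells (2 tested, 1.4%) by edgeR. At an unadjusted p under 0.05 there were 1, 1, 0 and 0, and DESeq2 called 0 in each.

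The makeup of the oligodendrocyte class also differed with treatment. The myelin genes Mbp, Mog and Cnp summed to 840.4 to 5707 CPM in vehicle and 5792 to 18892 CPM in vismodegib tumors. Pdgfra and Cspg4, markers of oligodendrocyte precursors, summed to 965 to 2161 CPM in vehicle, 319.9 to 617 CPM in vismodegib tumors and 210.3 to 634 CPM in WT. Myelin genes were thus higher and precursor genes lower in the treated tumors, and their part in the Tubb4a difference was not tested. The class held 417 cells in vehicle, 154 in vismodegib tumors and 242 in WT cerebella. As a share of beta-tubulin UMIs, Tubb4a made up 6.71 ± 0.762%, 25.6 ± 5.91% and 15.5 ± 5.42% in these groups. The other members tested in the class, Tuba1a among them (0.65 ± 0.28), were not called.

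**Figure D5:**
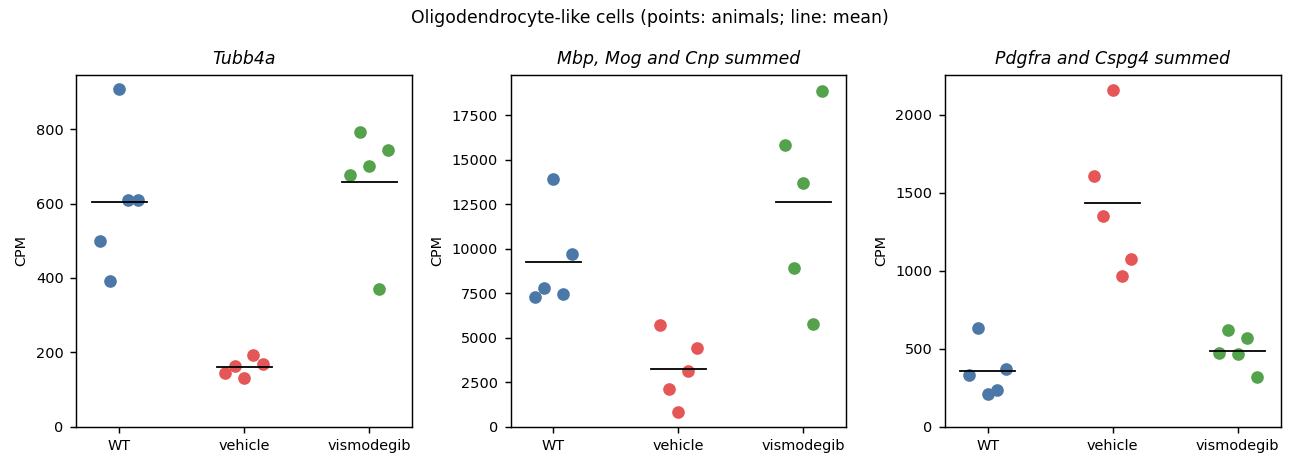
Tubb4a (left), 3 myelin genes summed (middle) and 2 precursor genes summed (right) in oligodendrocyte-like cells of each animal (points, y axis in CPM) with group means (lines). Vehicle tumors are lowest in Tubb4a and highest in the precursor genes in every animal, and the mean of the myelin genes is highest in vismodegib tumors, which lie above all vehicle tumors and overlap with WT.

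The comparison of vehicle-treated tumors with WT cerebella asked how tubulin expression in tumor cells differs from that of the lineage they come from. In summed lineage cells, 9 of the 10 genes were called, all lower in the tumors, where 44.4% of all genes (5591 of 12579) were called in either direction, with a median over all genes of 0.045. The 10 genes together stood at 7783 ± 1192 CPM in vehicle tumors and 12433 ± 1075 CPM in WT. The largest difference was that of Tubb2a, with 505, 754, 423, 561 and 538 CPM in WT against the vehicle values given above, -1.78 ± 0.17 (SE), adjusted p = 2.48e-06. Tubb2b followed, with 830.4, 1012, 728, 971 and 983 CPM in WT and -1.28 ± 0.15 (SE), adjusted p = 1.06e-05, then Tuba1b, with 952, 1088, 1404, 981 and 1011 against 475, 545, 551, 573 and 632 CPM and -1.06 ± 0.16 (SE), adjusted p = 7.49e-05. For these 3 genes no vehicle tumor reached the lowest WT cerebellum.

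Tuba1a (-0.85 ± 0.19), Tubb4a (-0.87 ± 0.18), Tubb3 (-0.76 ± 0.22) and Tubb4b (-0.74 ± 0.16) were lower as well, and held their calls in all 19 alternatives. Tuba1c (-0.81 ± 0.31 (SE), adjusted p = 0.0409) and Tubb5 (-0.37 ± 0.15 (SE), adjusted p = 0.0495) held it in 11 and 5 of 19. Tuba1c lost it without any 1 of WT replicates 1, 2 or 3 or vehicle replicates 3, 4 or 5 (adjusted p = 0.0513 to 0.146) and Tubb5 without any 1 of WT replicates 1, 2, 3, 4 or 5 or vehicle replicates 1, 2, 3 or 4 (adjusted p = 0.0564 to 0.113). Leaving out WT 1, whose Tuba1c of 113 CPM stood above the 69.1 CPM of the next animal, brought Tuba1c to -0.58 (adjusted p = 0.146). Tubb6 differed by 0.07 ± 0.41 (SE), adjusted p = 0.905. Mitochondrial UMIs, which enter the denominator of CPM, summed to 28053 to 48734 CPM in WT and 17746 to 28218 CPM in vehicle tumors, and hemoglobin to 106 to 1556 and 32.2 to 335 CPM. Of the marker lists other than those of the lineage classes, 5 were lower in the vehicle sums without overlap. The 5 neuron-like genes summed to 518 to 1015 CPM in WT and 231 to 377 CPM in vehicle tumors, the 4 unipolar brush cell genes to 62.7 to 101 and 10.3 to 31.7 CPM, the 4 GABAergic progenitor genes to 37.99 to 64.02 and 3.00 to 6.22 CPM, the 6 vascular fibroblast genes to 45.3 to 92.4 and 11.99 to 42.9 CPM and the 7 endothelial genes to 13.1 to 21.8 and 4.19 to 7.61 CPM. The other lists overlapped between the groups, those of astrocytes (305 to 487 and 412 to 673 CPM), oligodendrocytes (239 to 350.4 and 265 to 450.2 CPM) and GABAergic interneurons (472 to 554 and 458 to 593 CPM) with a higher median in vehicle tumors and those of microglia (10.7 to 29.2 and 4.00 to 27.7 CPM) and Purkinje cells (108 to 202 and 115 to 128 CPM) with a lower one. Stage makeup also differed. Differentiating cells, where Tubb2a is highest, made up 20.96 ± 4.77% of the WT and 5.21 ± 2.24% of the vehicle lineage, replicating cells 39.6 ± 9.40% and 18.4 ± 3.08%, mitotic cells 12.2 ± 5.22% and 22.5 ± 4.63%, and newly postmitotic cells 27.3 ± 3.35% and 29.2 ± 5.07%. WT and tumor cells were clustered apart, and no WT cluster took the name of the Atoh1-high class. This does not show that WT lacks such cells: by per-cell phase, 662 of 2594 WT progenitors were low in both phase markers. The part of these values in the summed differences was not tested.

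Stage by stage, the same direction was found for every call. In replicating cells 7 of 9 genes were lower in tumors (background 34.1%), in mitotic cells 8 of 10 (32.7%), in newly postmitotic cells 6 of 8 (30.4%) and in differentiating cells 7 of 8 (28.8%). The median over the members was -0.92, -0.99, -0.81 and -1.24, against medians over all genes of 0.044, 0.043, 0.034 and -0.0032. The replicating classes were unlike, since the hemoglobin-led cluster was in that of WT and outside the lineage in tumors. Hemoglobin summed to 98.6 to 3082 CPM in WT and 38.1 to 693 CPM in vehicle replicating cells, with overlap. The part of that cluster in the replicating differences was not tested. Tuba1b, Tubb2a and Tubb2b were called in all 4 stages with no overlap of the groups. Tuba1b went from -1.04 in mitotic to -1.45 in differentiating cells, and Tubb2a lay between -0.99 and -1.50. Tuba1a was also called in all 4, though in replicating cells not without any 1 of WT replicate 3 or vehicle replicate 1 (adjusted p = 0.058 to 0.0681). In differentiating cells Tubb2a stood at 483 to 836 CPM in tumors against 1641 to 2032 CPM in WT, a difference of -1.50 ± 0.16 (SE), adjusted p = 1.1e-07. Tubb4a in replicating cells lost its call without any 1 of WT replicates 3 or 4 or vehicle replicates 1 or 2 (adjusted p = 0.0688 to 0.106). Tubb3 was called in mitotic (-1.04 ± 0.22) and differentiating cells (-1.18 ± 0.19), while in newly postmitotic cells, where it is highest, the groups overlap (-0.53 ± 0.23 (SE), adjusted p = 0.0881). Tubb6 in mitotic cells was the only positive difference, 1.15 ± 0.49 (SE), adjusted p = 0.0782.

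Tubb5 behaved differently by stage. It stood at 3618, 3583, 2742, 3540.3 and 4025 CPM in mitotic cells of vehicle tumors and 3506, 3697, 3487, 3636 and 3435 CPM in WT, which overlap (-0.16 ± 0.14 (SE), adjusted p = 0.426). In newly postmitotic cells it stood at 2537, 3014, 1867, 2908 and 3212 CPM against 3874, 4155, 4682, 3955 and 3679.8 CPM, with all tumors below all WT cerebella (-0.76 ± 0.17 (SE), adjusted p = 0.00167). Grin2b stood at 38.8 to 108 CPM in the same vehicle and 113 to 138 CPM in the same WT cells, without overlap, and its part in the differences of this class and in the step was not tested. The WT replicating class, where the WT step starts, held the hemoglobin-led cluster, while its like in the tumors was outside the lineage. No alternative was set up to take this cluster out, and its part in the step was not tested. The test of the step itself, from replicating to newly postmitotic cells in vehicle tumors minus WT, gave -0.58 ± 0.084 (SE), adjusted p = 1.26e-07, and held in all 19 alternatives. Tubb5 and Tuba1a (-0.32 ± 0.091 (SE), adjusted p = 0.0202) were the 2 of 10 genes called in this test, with 4.25% of all genes. The call of Tuba1a held in 8 of 19 alternatives and was lost without any 1 of WT replicates 1, 2, 3 or 5 or vehicle replicates 1, 3 or 5 (adjusted p = 0.0549 to 0.227). Vehicle tumors also serve as the control of the comparison with vismodegib, so the comparisons share these 5 animals. Tubb2a was -1.78 ± 0.17 for vehicle against WT and 1.18 ± 0.22 for vismodegib against vehicle, and Tubb2b -1.28 ± 0.15 and 0.56 ± 0.17.

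Outside the lineage, the tubulin calls were also toward lower values in tumors. In oligodendrocyte-like cells 6 of 8 genes were lower in vehicle tumors than in WT (background 26.7%), with Tubb4a at -1.98 ± 0.23 (SE), adjusted p = 2.46e-06 and Tuba1a at -1.005 ± 0.23 (SE), adjusted p = 0.00253. In astrocyte-like cells 3 of 7 were lower (23%), namely Tubb2b (-1.48 ± 0.24), Tuba1a (-0.99 ± 0.23) and Tuba1b (-0.88 ± 0.30). Tuba1b was the 1 call of 3 in microglia-like cells (-1.19 ± 0.32, background 21.7%) and the 1 call of 3 in vascular fibroblast-like cells (-1.37 ± 0.39, background 33.7%). Neither of 2 tested was called by edgeR in endothelial-like cells (31%), with 0 at an unadjusted p under 0.05 and 0 called by DESeq2, although all vehicle values of Tuba1b (0 to 283 CPM) lay below all WT values (322 to 1345 CPM). The counts in microglia-like and vascular fibroblast-like cells, 1 of 3 each, are near the share over all genes and say nothing particular about tubulins. The call of Tuba1b was lost without any 1 of WT replicates 1, 2 or 3 or vehicle replicates 1, 2, 3 or 4 (adjusted p = 0.05002 to 0.101) in astrocyte-like cells and without WT replicate 2 (adjusted p = 0.0741) in microglia-like cells. In oligodendrocyte-like cells Tubb2a lost its call without vehicle replicate 2 (adjusted p = 0.0604) and Tubb4b without any 1 of WT replicates 1 or 4 or vehicle replicates 2 or 5 (adjusted p = 0.0513 to 0.0698). The makeup of the oligodendrocyte class differed without overlap, with Mbp, Mog and Cnp at 7273 to 13917 CPM in WT against 840.4 to 5707 CPM in vehicle tumors and Pdgfra and Cspg4 at 210.3 to 634 against 965 to 2161 CPM, and its part was not tested. Age, genotype, injection, device, spike-in and route of alignment cannot be told apart here either.

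The other genes of the microtubule system were read from 4 lists: proteins that bind microtubules or, as the stathmins do, tubulin dimers, tubulin folding factors, enzymes that modify tubulin, and the remaining tubulins with the gamma-tubulin ring that seeds microtubules. From the Atoh1-high to the newly postmitotic class of the tumors, 24 of 29 tested microtubule-binding genes rose and 2 fell, with a median of 0.91 against -0.00046 over all genes, of which 60.2% were called. Largest among the more abundant were Dpysl3, a collapsin response mediator of growing axons (2.80 ± 0.11, adjusted p = 8.61e-33), and Stmn2, a stathmin of growth cones (2.67 ± 0.079, adjusted p = 2.37e-40). Of the folding genes 11 of 20 fell and 3 rose, with the chaperonin subunit Cct3 among the former (-0.62 ± 0.059, adjusted p = 1.53e-14). Of modifying enzymes 9 of 16 rose and 2 fell, among them the tubulin acetyltransferase Atat1 (1.31 ± 0.12, adjusted p = 1.48e-15) and the deglutamylase Agtpbp1 (1.000 ± 0.10, adjusted p = 3.98e-13). Of the fourth list 4 rose and 3 fell of 12. The shares called in these last 3 lists are near that of all genes.

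In the step to differentiating cells, where 52.4% of all genes were called, 18 of 29 microtubule-binding genes rose and 5 fell, with Mapt, which encodes tau, at 1.76 ± 0.095, adjusted p = 3.08e-26, and 16 of 20 folding genes fell, with Cct5 at -0.67 ± 0.066, adjusted p = 6.22e-14. In mitotic against replicating cells 2 microtubule-binding genes rose, Ckap5, a spindle microtubule polymerase (0.99 ± 0.07, adjusted p = 2.3e-19), and Dclk1 (0.32 ± 0.10, adjusted p = 0.0243), and 11 fell of 29 tested, against 15.7% of all genes called. With vismodegib against vehicle in summed lineage cells, 11 of 29 microtubule-binding genes rose and 1 fell (median 0.52, against 0.0029 over all genes, of which 13.1% were called). Mapt (1.53 ± 0.29, adjusted p = 0.00333) and Dpysl3 (1.28 ± 0.14, adjusted p = 0.000181) rose most among the more abundant ones, and Dclk1 was the one that fell (-0.85 ± 0.20, adjusted p = 0.0119). Of 16 modifying enzymes 5 rose, Agtpbp1 most (0.84 ± 0.16, adjusted p = 0.00407), and 0 of 20 folding genes and 13 other tubulins were called by edgeR (2 and 4 at an unadjusted p under 0.05, and 0 and 0 called by DESeq2). The stage makeup of the lineage differed between these groups in the same sums.

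In vehicle tumors against WT, 10 of 29 microtubule-binding genes were lower and 3 higher, a share close to the 44.4% of all genes called. The stathmins Stmn1 (-2.17 ± 0.19, adjusted p = 1.06e-06) and Stmn2 (-1.63 ± 0.21, adjusted p = 2.91e-05) were lowest, and Tppp3 (1.25 ± 0.25, adjusted p = 0.00102) and Crmp1 (1.15 ± 0.14, adjusted p = 1.24e-05) highest. Of 20 folding genes 6 were lower and 1 higher, of 16 modifying enzymes 3 and 3, and of 12 other tubulins and ring genes 3 and 4, to be read against the same background. The medians of the 4 lists were -0.13, -0.19, -0.23 and 0.23, against -0.83 for the 10 tubulin genes and 0.045 over all genes. In the stage test of vismodegib, 9 of 29 microtubule-binding genes had a lower effect in progenitors than in postmitotic cells and 0 a higher one (7.85% of all genes were called), with Dclk1 at -0.97 ± 0.09, adjusted p = 4.23e-15 and Mapt at -0.71 ± 0.12, adjusted p = 7.2e-06. In the step to newly postmitotic cells, 7 differed downward and 1 upward of 29 between vehicle tumors and WT (4.25% of all genes), with Tppp3 at -1.20 ± 0.23, adjusted p = 0.000179 and Stmn2 at 0.28 ± 0.09, adjusted p = 0.0478.

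The genes whose levels followed each isotype most closely over the 32 class means of the 3 groups (Pearson's r on log2(CPM + 10), 4461 genes compared) are given as a description, since classes share animals and libraries. Tuba1a was most like Tubb2b (r = 0.94) and then Ctxn1 (0.91), and Tubb2b after Tuba1a was most like Marcksl1 (0.93). Tubb3 was most like Clvs1 (0.94) and Kif5c (0.93), the latter a neuronal kinesin. For Tubb2a these were Pak1 and Pcsk1n (both 0.89), and for Tubb5 Caprin1 and Gtf2a2 (both 0.91). Tuba1b was most like Ran (0.91), a GTPase of nuclear transport and spindle assembly, and Hmgb2 (0.90), and Tubb4b most like Ran (0.88) and Cenpw (0.85), a centromere protein.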

How the data were processed

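Drop-seq libraries of 5 WT cerebella and 10 M-Smo tumors (5 vehicle, 5 vismodegib) were sequenced, and the authors deposited 1 table of UMI counts per library, with genes in rows and barcodes in columns. Per the labels and the study's methods, reads were aligned with STAR (2.5.4a) and counted with Drop-seq Tools 1.13, 1 count per UMI, barcode and gene. Tumor runs held added human cells: their reads went first to hg19 and mm10 combined, barcodes of almost only mouse transcripts were kept, and these were aligned again to mm10 with the transgenes. WT reads, without human cells, went to the latter reference only. The submitters' processing notes also name bcl2fastq 2.18, STAR 5.4b and Seurat 2.3.0. 

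The 10 genes and the lists of other microtubule genes were chosen with earlier results of these data known. The named list genes were at most 2 that rose and 2 that fell per comparison, those of the largest absolute log2 fold change among called genes whose mean log2 CPM was 5 or more. A cell was kept if it had 500 or more UMIs and 500 or more genes and if neither of these nor its mitochondrial share exceeded the library's median by over 5 SD, and no doublet caller was run beyond these upper limits. Tumor and WT cells were clustered separately at a resolution of 0.8 (scikit-learn 1.9.0, scipy 1.17.1), without the tubulin and listed genes, and named from marker lists. A minimum mean log2 fold of 0.8, set after the clusters were seen, was asked of a name without a marker among a cluster's top 10 genes. No WT cluster took the non-replicating name, so WT steps were taken from replicating cells.

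UMI counts were summed per animal and class (at least 5 cells) and tested with edgeR 4.0.16 (limma 3.58.1, R 4.3.3): TMM, filterByExpr, quasi-likelihood fit and Benjamini-Hochberg adjustment over all genes tested, called at an adjusted p under 0.05. Steps and interactions used the animal as a block. The fit was tested on simulated data: of 100 genes changed 2-fold, 72% were recovered for vismodegib against vehicle in the lineage (12415 genes) and 75% for vehicle against WT (12579 genes). Of 100 changed 1.5-fold, 22% and 14% were. Alternatives were DESeq2 1.42.0, its size factors, library size only, no filter on low counts, cells up to 4 SD or of at least 1000 UMIs, 20 cells per sum, a resolution of 1.2, per-cell phases (for the tumors chosen after seeing the data), tumor sets, a replicate block and leaving out each animal. The annotation release behind the counts was stated neither in the labels nor in the study's methods, and positions were read from GENCODE M21. Motifs were searched with Python 3.11.15, pandas 2.3.3 and numpy 2.4.6 in RefSeq promoters, and figures drawn with matplotlib 3.10.9.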

Additional observations from a re-analysis of the deposited data

Results flagged for a closer look

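In 22 of 264 sets of 5 animals tested for each gene and class, 8.33%, 1 animal lay so far from the other 4 that the gap was over 0.71 of the range, and chance alone gives about 5% of such sets. WT 5 was high in endothelial-like cells in 3 genes, Tubb4b at 430.4 CPM (nearest other 167 CPM), Tubb5 at 2421 CPM (nearest other 1253 CPM), and Tubb6 at 323 CPM (nearest other 122 CPM). The same animal was low in vascular fibroblast-like cells in Tubb5 at 863 CPM (nearest other 1159 CPM). WT 3 was low in oligodendrocyte-like cells in Tubb2b at 650.0 CPM (nearest other 1049 CPM), and in vascular fibroblast-like cells in Tubb2a at 0 CPM (nearest other 98.7 CPM). WT 1 was high in the lineage in Tuba1c at 113 CPM (nearest other 69.1 CPM), and low in microglia-like cells in Tubb4b at 82.7 CPM (nearest other 144 CPM).

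Among vehicle tumors, vehicle 4 was high in the lineage in Tubb2b at 505 CPM (nearest other 376 CPM), and vehicle 5 in Tubb4b at 249.7 CPM (nearest other 165 CPM). Vehicle 1 was high in astrocyte-like cells in Tuba1a at 1685 CPM (nearest other 1146 CPM), and low in newly postmitotic cells in Tuba1b at 145 CPM (nearest other 203 CPM). Vehicle 2 was high in astrocyte-like cells in Tubb6 at 211 CPM (nearest other 51.3 CPM), and in microglia-like cells in Tubb5 at 1351 CPM (nearest other 1039 CPM). Vehicle 3 was high in microglia-like cells in Tubb6 at 183 CPM (nearest other 41.2 CPM), and low in Atoh1-high cells in Tubb2a at 38.5 CPM (nearest other 63.1 CPM).

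Among vismodegib tumors, vismodegib 1 was high in 3 sets, differentiating cells with Tuba1a at 7215 CPM (nearest other 5022 CPM), mitotic cells with Tubb2a at 154 CPM (nearest other 73.2 CPM), and vascular fibroblast-like cells with Tuba1a at 2164 CPM (nearest other 890.1 CPM). Vismodegib 3 was high in replicating cells in Tubb4b at 271 CPM (nearest other 191 CPM), and vismodegib 5 in Atoh1-high cells in Tubb3 at 566 CPM (nearest other 263 CPM). Vismodegib 4 was low in oligodendrocyte-like cells in Tubb4a at 371 CPM (nearest other 676 CPM), and still lay above all vehicle tumors. Effects that differed between groups by a test of the difference were the vismodegib effect in progenitor minus postmitotic stages of Tuba1a (-0.33), Tubb2b (-0.23) and Tubb3 (0.26), and the step from replicating to newly postmitotic cells in vehicle tumors minus WT of Tuba1a (-0.32) and Tubb5 (-0.58), all on the log2 scale.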

How the results depend on the processing

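Of the alternative values computed for called tubulin differences, those with the tumor sets included, 1992 kept their direction and call, 130 kept the direction but not the call and 12 turned. For vismodegib against vehicle in summed lineage cells (2 tubulin calls, 1630 genes called in all), there was 1 tubulin call, Tubb2a, with DESeq2 size factors, without a filter on low counts or with cells of at least 1000 UMIs. With the tumor set, which was drawn from these values and gives p-values that are too small, as a term there were 5 calls (2458 genes), within the first set 1 (465 genes) and within the second 4 (3209 genes). Single stages had 0 calls, but 1 without the filter, 2 with the set term and 3 with per-cell phases, and other cell types 1, but 2 with the set term. The vehicle minus WT difference in the step to newly postmitotic cells had 2 calls, but 1 with DESeq2 or cells of at least 1000 UMIs. The genes varied, with Tubb5 called in all 19 alternatives, Tuba1a in 8, and Tubb3 and Tubb6 in 1 each. The summed WT lineage level became 14042 CPM with mitochondrial, ribosomal and hemoglobin genes left out of the total. Leaving out 1 animal gave 1 to 2 calls (1156 to 1953 genes) for vismodegib against vehicle in the lineage, 0 in stages and 1 in other cell types. It gave 7 to 8 (4874 to 5669 genes), 26 to 30 and 9 to 13 for vehicle against WT, 38 to 43 and 15 to 17 for the steps in tumors and WT, and 1 to 4 and 1 to 2 for the interactions. The cause of these shifts was not tested.

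For vismodegib against vehicle in the lineage, values that turned were those of Tuba1c within the first set (0.64) and without vehicle replicate 2 (0.035), and of Tubb4b (0.13) and Tubb5 (0.063) within the first set. Leaving out 1 animal gave Tuba1c from -0.40 to 0.035 there, and Tubb6 from -0.11 to 0.32 for vehicle against WT. For vehicle against WT, Tubb6 turned to -0.065 without WT replicate 1, -0.089 without WT replicate 5 and -0.11 without vehicle replicate 5. With per-cell phases, the tumor step from low-phase to replicating cells turned for Tuba1a (-0.088), Tuba1c (-1.04), Tubb2a (-0.20), Tubb2b (-0.15), Tubb3 (-0.14) and Tubb4b (-0.0017). The step to mitotic cells turned for Tubb2a (0.30), Tubb2b (0.39) and Tubb3 (0.46) in tumors and for Tuba1b (-0.11) in WT. Between 23.2% and 29.3% of progenitors lay near a phase limit. With a resolution of 1.2, the step to differentiating cells turned for Tuba1a (0.034) and Tubb2b (0.20), the latter called in either direction, and Tubb4b gained a lower call. At that resolution the 3 lower calls at the tumor step to mitotic cells were lost, and WT gained them and lost that of Tubb5. Without the filter on low counts or with library size only, calls were also lost by Tuba1a and Tubb4a in replicating cells for vehicle against WT, by Tubb2a and Tubb4b in oligodendrocyte-like cells and by Tubb5 at the tumor step from replicating to newly postmitotic cells.

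No label says that a replicate number marks a litter or a day, although the titles number same-numbered tumors next to each other and the study injected littermates. Deviations of same-numbered tumors correlated at -0.17 to 0.38, 3 of 5 over 0.1 and with 2 of 5 closest to their own number, and those of WT and vehicle at -0.17 to -0.0033. With the replicate number as a block, vismodegib against vehicle in the lineage had 2 tubulin calls and 1719 genes called, with Tubb2a at 1.14 and Tubb2b at 0.54. For vehicle against WT there were 7, without Tuba1c (adjusted p = 0.0797) and Tubb5 (adjusted p = 0.115). Depth limited mostly Tuba1c and Tubb6, which held few UMIs per sum, and classes of under 200 cells per group, where few genes could be tested.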
